A study of Homo sapiens with 9 samples.

Results

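Fatty acid oxidation and carnitine genes were followed in PANC-1 cells that overexpress a transporter of the SLC22 family. The set was given as 38 gene symbols covering the carnitine shuttle, the mitochondrial and peroxisomal oxidation enzymes, electron transfer and regulators. Of these, 37 were matched by symbol among the 16750 genes with deposited values, and PPARGC1A is not analysed here. The 37 matched genes are called the members below, and all of them passed the filter on low values. Of the members, 36 stood at 1 CPM or more in all 9 libraries, and PDK4 was below 1 CPM in 1 SLC22A15_OE library. CPM are reads per gene scaled to a common library size.

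Long-chain fatty acids enter mitochondria as carnitine esters. A carnitine palmitoyltransferase on the outer membrane (CPT1) makes the ester, a translocase in the inner membrane carries it across, and CPT2 returns the acyl group to coenzyme A. The acyl chain is then shortened by repeated rounds of dehydrogenation, hydration, a second dehydrogenation and thiolytic cleavage, with electrons passed by the electron transfer flavoprotein to the respiratory chain, while peroxisomes shorten very long and branched chains. Nuclear receptors of the PPAR family are activated by fatty acids and raise the transcription of many of these genes, mainly in liver, heart and muscle.

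PANC-1 is a human cell line from an epithelioid carcinoma of the pancreatic duct. Stable clones were made by lentiviral transduction of PANC-1 with SLC22A15 (SLC22A15_OE), with SLC22A10 (SLC22A10_OE) or with the empty plasmid (vector), and all 3 kinds were selected and grown in puromycin. The study profiled 3 RNA libraries of each, from rRNA-depleted, strand-specific preparations, and compared each overexpressing line with vector. SLC22A10 and SLC22A15 belong to the family of organic ion transporters that also holds the carnitine transporter SLC22A5. Each genotype was read from 3 libraries whose origin in separate cultures or clones is not stated, so the p-values are based on variation among libraries that may be technical replicates, and an effect of the transporter cannot be told apart from a property of the clones. In bulk RNA, a change in the share of cells that express a gene cannot be told apart from a change in RNA per cell.

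Library totals ran from 28.4 to 42.9 M reads, so that 1 CPM stood for 27.8 to 43.4 reads and a counting SD of 15.2% to 19.0%. SLC22A10 stood at 85.4 ± 5.53 CPM in SLC22A10_OE, against 0.00938 CPM in vector (1 read in 1 library). SLC22A15 stood at 75.9 ± 2.48 CPM in SLC22A15_OE, against 6.11 ± 0.571 CPM in vector (SD, n = 3 each). In 1 library of each group, SLC22A15_OE 1, SLC22A10_OE 3 and vector 1, mitochondrial ribosomal RNA took 0.00958% to 0.0151% of reads, against 0.0454% to 0.0843% in the other 6. Of the 9 markers of duct or epithelial carcinoma cells, 5 had values, and their summed level was 287 to 321 CPM in SLC22A15_OE, 532 to 593 CPM in SLC22A10_OE and 436 to 475 CPM in vector. Among them KRT7, a duct keratin, was under the filter at 0.183 CPM in SLC22A10_OE and 0.449 CPM in vector, and the other 4 were tested. In SLC22A15_OE 3 of these fell (KRT8, KRT18 and SOX9, with log2 fold changes against vector of -0.93, -0.75 and -0.56), while in SLC22A10_OE KRT19 and SOX9 rose (1.55 and 0.30), KRT18 fell (-0.70) and KRT8 did not pass. Of the 10 hepatocyte markers 2 had values, with a summed level of 22.9 to 25.3 CPM in SLC22A15_OE, 52.3 to 59.3 CPM in SLC22A10_OE and 20.2 to 24.1 CPM in vector, nearly all of it CPS1, a urea cycle enzyme. The single blood cell marker with values, CD14, a monocyte receptor for bacterial lipopolysaccharide, was at 8.14 CPM in SLC22A10_OE, against 0.612 CPM in vector. The adipocyte marker PLIN4, a coat protein of lipid droplets, fell in SLC22A10_OE, at 5.45 CPM, against 9.25 CPM in vector, and the muscle actin ACTA1 did not pass in either line. Markers thus differed between the groups in both directions, and their part in the results below was not tested.

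Most of the oxidation genes were higher in SLC22A10_OE than in vector, and few differed in SLC22A15_OE. Of the 37 members, 32 rose in SLC22A10_OE, 2 fell (ACAD8 and PPARGC1B) and 3 did not pass the test (SLC25A20, ACAD9 and PPARD), at a limma p adjusted by Benjamini-Hochberg of under 0.05. Of all 14554 genes tested, 67.2% were called in this comparison, 34.7% higher and 32.5% lower. The median log2 fold change of the members was 0.44, on the scale of log2(CPM + 1), where that of all genes tested was 0.0046. This scale understates the change of genes at a few CPM. In SLC22A15_OE, 6 members rose (CPT1C, CPT2, CRAT, CROT, ETFB and DECR2), 4 fell (CPT1A, HADHA, PPARGC1B and ANGPTL4) and 27 did not pass, while 20.4% of all genes were called, 10.8% higher and 9.58% lower. The members' share called there, 16.2% higher and 10.8% lower, lay near that background, and their median was 0.077 against 0.0056 for all genes tested. The 2 comparisons share the vector libraries, so their values are given side by side.

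The lines were also set against each other, which tests whether their differences from vector differ. Relative to SLC22A10_OE, 28 members were lower in SLC22A15_OE, 1 was higher (PPARGC1B) and 8 did not pass, with 62.9% of all genes called, 30.8% higher and 32.1% lower. The median of the members was -0.40, where that of all genes tested was -0.0020. In 34 members the 3 SLC22A10_OE libraries did not overlap the vector libraries (69.2% of all genes), in 16 the SLC22A15_OE libraries did not overlap vector (34.7%), and in 29 the 2 lines did not overlap each other (67.4%). Centring every library on its median moved all fold changes by -0.12 for SLC22A10_OE against vector and by 0.095 between the lines. Centred, 26 members were higher and 2 lower in SLC22A10_OE, beside 3875 higher and 6233 lower genes in all, where the deposited scaling gave 5047 higher and 4728 lower. Between the lines, centring gave 5 higher and 27 lower members, beside 5798 higher and 3713 lower genes in all, where the deposited scaling gave 4484 and 4674.

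**Figure D1:**
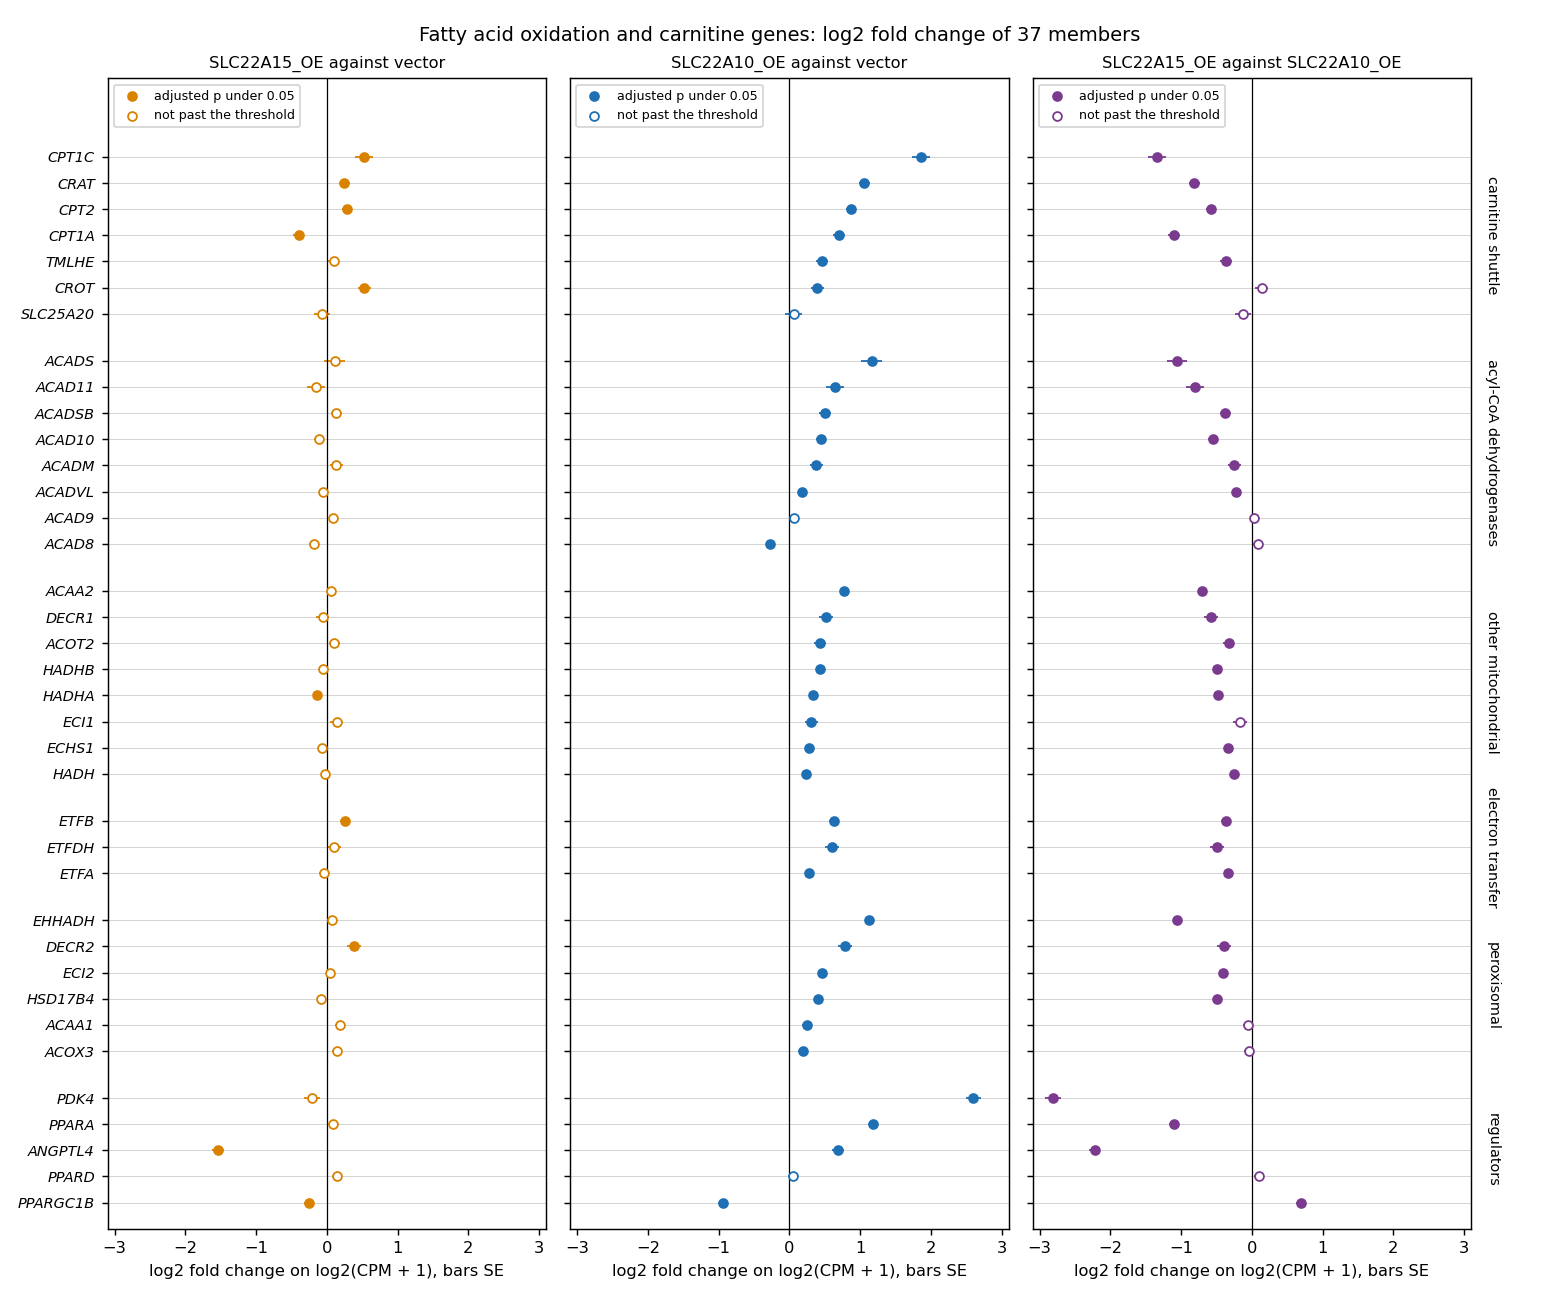
Log2 fold change on log2(CPM + 1) (x axis) of the 37 members, grouped by step (rows), for SLC22A15_OE against vector, SLC22A10_OE against vector and SLC22A15_OE against SLC22A10_OE; bars are the SE from limma and filled points passed the Benjamini-Hochberg adjusted p of 0.05. In the SLC22A10_OE panel 32 filled points lie right of 0 and 2 left of it, and in the SLC22A15_OE panel against vector 6 lie right and 4 left.

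Most of the carnitine shuttle genes passed the test in both lines: 6 of its 7 members rose in SLC22A10_OE, and 4 rose and 1 fell in SLC22A15_OE. The counts of this and the following steps are read beside the shares of all genes tested. Those were 34.7% higher and 32.5% lower in SLC22A10_OE, and 10.8% higher and 9.58% lower in SLC22A15_OE. CPT1A and CPT1C, both CPT1 enzymes, moved the same way in SLC22A10_OE and opposite ways in SLC22A15_OE. CPT1A, which makes long-chain acylcarnitine in most tissues and is the rate-controlling step of entry, had 14.99, 18.3 and 18.2 CPM in SLC22A15_OE, 35.8, 39.8 and 38.03 CPM in SLC22A10_OE and 22.7, 22.9 and 23.1 CPM in vector. The 3 groups did not overlap, with SLC22A10_OE highest and SLC22A15_OE lowest. The log2 fold change of CPT1A against vector was -0.40 (SE 0.080, adjusted p = 0.00292) in SLC22A15_OE and 0.70 (SE 0.080, adjusted p = 5.69e-06) in SLC22A10_OE, and between the lines it was -1.10 (SE 0.080, adjusted p = 1.56e-07). CPT1C, a form mainly of neurons with little catalytic activity, had 3.75, 3.48 and 3.09 CPM in SLC22A15_OE, 9.95, 8.90 and 11.98 CPM in SLC22A10_OE and 2.22, 2.42 and 1.64 CPM in vector. Its groups did not overlap either, but both lines stood above vector. It rose by 0.53 (SE 0.13, adjusted p = 0.0104) on the log2 scale in SLC22A15_OE and by 1.87 (SE 0.13, adjusted p = 5.22e-08) in SLC22A10_OE. The call in SLC22A15_OE was lost without vector 3 (limma adjusted p = 0.0550).

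CPT2, the inner membrane enzyme, had 33.3, 31.5 and 32.6 CPM in SLC22A15_OE, 48.4, 48.2 and 50.8 CPM in SLC22A10_OE and 29.01, 25.5 and 24.9 CPM in vector, again with both lines above every vector library and SLC22A10_OE highest. Its log2 fold changes against vector were 0.29 (SE 0.066, adjusted p = 0.00754) in SLC22A15_OE and 0.87 (SE 0.066, adjusted p = 1.37e-07) in SLC22A10_OE. Of the CPT2 exon bases, 16.5% overlap AL606760.2 and 3.1% overlap C1orf123, both on the opposite strand. Whether the counting used strand is not stated in the labels or headers. CRAT, which exchanges acetyl groups between carnitine and coenzyme A, had 66.9, 66.8 and 62.9 CPM in SLC22A15_OE, 111, 114 and 123 CPM in SLC22A10_OE and 61.8, 49.6 and 54.2 CPM in vector. SLC22A10_OE lay far above the other groups, and the lowest SLC22A15_OE library stood just above the highest vector library. The log2 fold change of CRAT was 1.06 (SE 0.073, adjusted p = 5.42e-08) in SLC22A10_OE and 0.25 (SE 0.073, adjusted p = 0.0293) in SLC22A15_OE. The second of these calls did not hold with only SLC22A15_OE and vector in the fit, or when vector 2, vector 3, SLC22A15_OE 1 or SLC22A15_OE 2 was left out (limma adjusted p from 0.0543 to 0.119). CROT, the peroxisomal octanoyltransferase, rose about equally in both lines, with 12.5, 14.7 and 15.9 CPM in SLC22A15_OE, 13.3, 12.9 and 12.6 CPM in SLC22A10_OE and 9.01, 9.99 and 9.81 CPM in vector. Both lines lay above vector and overlapped each other, with a log2 fold change of 0.53 (SE 0.092, adjusted p = 0.00101) in SLC22A15_OE, 0.39 (SE 0.092, adjusted p = 0.00201) in SLC22A10_OE and 0.14 (SE 0.092, adjusted p = 0.207) between the lines. TMLHE, the first enzyme of carnitine synthesis, was at 26.5 ± 1.67 CPM in SLC22A10_OE, against 18.95 ± 1.25 CPM in vector (log2 fold change 0.46, limma adjusted p = 0.000234). The translocase SLC25A20 was the one shuttle gene that passed in neither line. It was at 7.54 ± 1.09 CPM in SLC22A10_OE, against 7.15 ± 0.359 CPM in vector (limma adjusted p = 0.663).

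**Figure D2:**
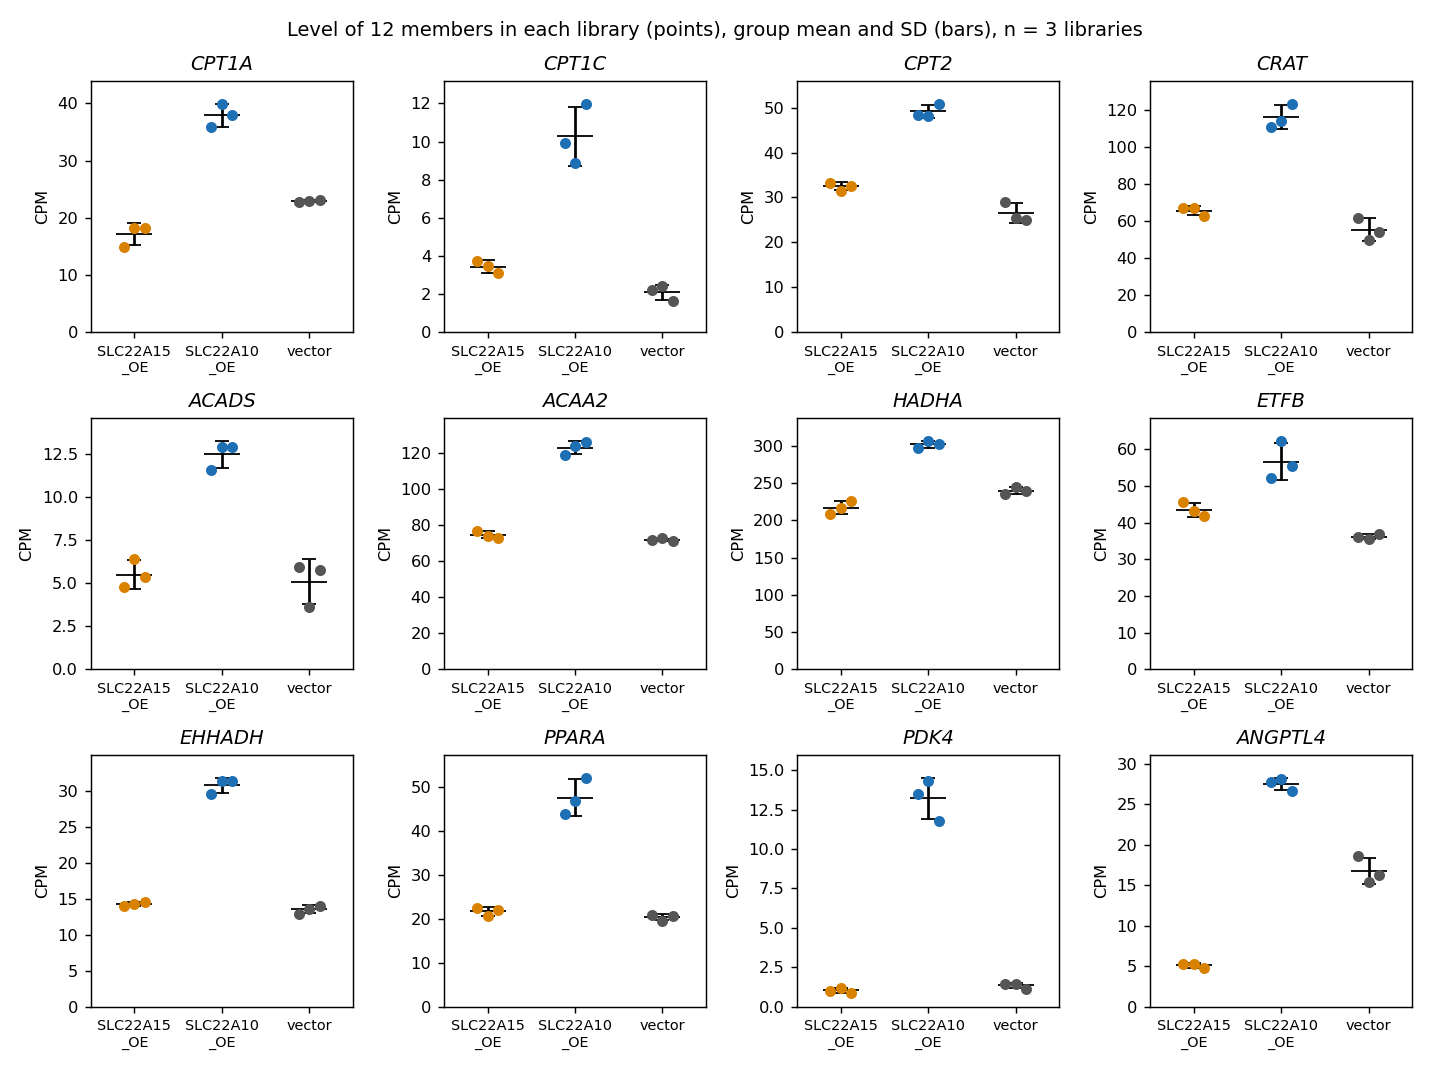
Level in CPM (y axes, each from 0) of 12 members in every library (points) of SLC22A15_OE, SLC22A10_OE and vector; bars are the group mean and SD of 3 libraries. In each panel the SLC22A10_OE libraries lie above vector, while SLC22A15_OE lies below vector for CPT1A, HADHA and ANGPTL4 and above it for CPT1C, CPT2, CRAT, ETFB, ACAA2 and EHHADH, the last 2 without passing the test.

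The acyl-CoA dehydrogenases take the first 2 hydrogens from the acyl chain, each for its own range of chain lengths or branched chains. Of 8 measured, 6 rose and 1 fell in SLC22A10_OE, and none passed in SLC22A15_OE against vector (limma; the adjusted p of ACAD8, the lowest, was 0.0612). ACADS, the short-chain enzyme, had 4.76, 6.40 and 5.37 CPM in SLC22A15_OE, 11.6, 12.9 and 12.95 CPM in SLC22A10_OE and 5.94, 3.60 and 5.78 CPM in vector. SLC22A10_OE was above every other library, and the other groups overlapped. Its log2 fold change in SLC22A10_OE was 1.17 (SE 0.15, adjusted p = 1.40e-05). ACADSB, for short branched chains, had 38.6, 44.8 and 43.7 CPM in SLC22A15_OE, 57.4, 53.5 and 54.3 CPM in SLC22A10_OE and 33.9, 41.7 and 40.4 CPM in vector (log2 fold change in SLC22A10_OE 0.51 (SE 0.081, adjusted p = 0.000111)), and its SLC22A15_OE and vector libraries overlapped. ACAD10, a member of the family with a less defined substrate, had 27.4, 25.9 and 25.5 CPM in SLC22A15_OE, 37.2, 37.8 and 41.9 CPM in SLC22A10_OE and 30.3, 26.6 and 28.3 CPM in vector (log2 fold change in SLC22A10_OE 0.44 (SE 0.070, adjusted p = 0.000106)). Here too SLC22A10_OE alone stood apart. ACAD11, which acts on very long chains and hydroxylated acids, had 3.75, 3.07 and 2.74 CPM in SLC22A15_OE, 5.14, 6.21 and 7.63 CPM in SLC22A10_OE and 3.72, 3.77 and 3.42 CPM in vector (log2 fold change in SLC22A10_OE 0.65 (SE 0.13, adjusted p = 0.000710)) and had the lowest level per kb of exon of the family in vector. Its value is uncertain, since part of its exons is shared with overlapping genes and how shared reads were assigned was not stated in the labels or headers.

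The other dehydrogenases differed less. ACADM, the medium-chain enzyme, was at 58.6 ± 4.004 CPM in SLC22A10_OE, against 44.9 ± 4.94 CPM in vector (log2 fold change 0.38, limma adjusted p = 0.00246), and ACADVL, the very long-chain enzyme of the inner membrane, was at 338 ± 11.5 CPM in SLC22A10_OE, against 299 ± 12.9 CPM in vector (0.18, adjusted p = 0.00382). The call of ACADVL was lost when libraries were centred (adjusted p = 0.273). ACAD8, the isobutyryl-CoA dehydrogenase of valine breakdown, went the other way, at 21.7 ± 0.423 CPM in SLC22A10_OE, against 26.3 ± 0.883 CPM in vector (-0.27, adjusted p = 0.00273). ACAD9, which also serves the assembly of respiratory complex I, was at 91.7 ± 3.75 CPM in SLC22A10_OE, against 87.9 ± 1.51 CPM in vector and did not pass (adjusted p = 0.290).

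Every one of the 8 members for the later mitochondrial steps rose in SLC22A10_OE, by 0.23 to 0.77 on the log2 scale. In SLC22A15_OE, HADHA fell and the other 7 did not pass. ACAA2, the thiolase that cleaves off acetyl-CoA, had 77.00, 74.3 and 73.2 CPM in SLC22A15_OE, 119, 124 and 126 CPM in SLC22A10_OE and 71.7, 72.7 and 71.3 CPM in vector. Its SLC22A10_OE libraries were far above the rest, and SLC22A15_OE stood just above vector without overlap. The log2 fold change was 0.77 (SE 0.047, adjusted p = 1.59e-08) in SLC22A10_OE and 0.057 (SE 0.047, adjusted p = 0.447) in SLC22A15_OE. ECHS1, the short-chain enoyl-CoA hydratase, had 120.4, 116 and 116 CPM in SLC22A15_OE, 147, 146 and 155 CPM in SLC22A10_OE and 132, 119 and 117 CPM in vector, with only SLC22A10_OE apart (log2 fold change 0.28 (SE 0.053, adjusted p = 0.000410)). HADH, the short-chain hydroxyacyl-CoA dehydrogenase, was at 55.3 ± 0.656 CPM in SLC22A10_OE, against 46.9 ± 0.565 CPM in vector (0.23, limma adjusted p = 0.00252). The enoyl-CoA isomerase ECI1 was at 26.5 ± 1.29 CPM in SLC22A10_OE, against 21.3 ± 2.39 CPM in vector (0.31, adjusted p = 0.0102). The calls of HADH and ECI1 were lost with centring (adjusted p = 0.1003 and 0.0797), and that of ECI1 also without vector 2 (0.0503). DECR1, the dienoyl-CoA reductase for unsaturated chains, was at 33.4 ± 3.41 CPM in SLC22A10_OE, against 22.96 ± 2.19 CPM in vector (0.52, adjusted p = 0.000325). The thioesterase ACOT2 was at 34.97 ± 2.27 CPM in SLC22A10_OE, against 25.6 ± 2.05 CPM in vector (0.44, adjusted p = 0.000352), an uncertain value because ACOT1 is a near-identical gene and how shared reads were assigned was not stated in the labels or headers.

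HADHA and HADHB encode the alpha and beta subunits of the mitochondrial trifunctional protein, which carries out the last 3 steps for long chains. They lie head to head on chromosome 2, with 306 bases between their RefSeq starts. The 250 bases before each start are shown because this stretch is common to a gene pair whose members were both higher in SLC22A10_OE. Capitals mark the 194 bases that both windows share, read on opposite strands, and the sequences are from RefSeq (GRCh38.p14), chr2:26244633-26244882 on the minus strand for HADHA and chr2:26244689-26244938 on the plus strand for HADHB.
HADHA: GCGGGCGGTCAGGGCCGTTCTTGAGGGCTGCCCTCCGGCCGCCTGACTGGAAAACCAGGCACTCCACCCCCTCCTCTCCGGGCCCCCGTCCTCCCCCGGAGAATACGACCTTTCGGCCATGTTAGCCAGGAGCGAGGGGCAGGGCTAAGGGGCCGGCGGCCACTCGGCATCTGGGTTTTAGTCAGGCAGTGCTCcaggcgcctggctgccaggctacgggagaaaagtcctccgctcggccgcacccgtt
HADHB: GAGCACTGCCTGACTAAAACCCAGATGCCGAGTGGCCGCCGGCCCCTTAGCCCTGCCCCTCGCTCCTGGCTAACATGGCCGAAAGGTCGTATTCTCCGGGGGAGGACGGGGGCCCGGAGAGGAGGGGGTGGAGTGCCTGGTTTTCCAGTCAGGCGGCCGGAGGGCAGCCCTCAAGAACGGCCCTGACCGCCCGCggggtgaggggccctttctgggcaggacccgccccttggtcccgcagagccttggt

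HADHA had 208, 217 and 226 CPM in SLC22A15_OE, 297, 306 and 303 CPM in SLC22A10_OE and 235, 245 and 239.7 CPM in vector. The 3 groups did not overlap, with SLC22A10_OE highest and SLC22A15_OE lowest. HADHB had 112, 122 and 119.7 CPM in SLC22A15_OE, 164, 168 and 166 CPM in SLC22A10_OE and 119.6, 127 and 123 CPM in vector, where SLC22A15_OE overlapped vector. In SLC22A10_OE the log2 fold changes were 0.33 (SE 0.043, adjusted p = 1.80e-05) for HADHA and 0.43 (SE 0.047, adjusted p = 3.82e-06) for HADHB, and between the lines they were -0.48 (SE 0.043, adjusted p = 1.00e-06) and -0.49 (SE 0.047, adjusted p = 1.71e-06). In SLC22A15_OE against vector they were -0.15 (SE 0.043, adjusted p = 0.0302) for HADHA and -0.060 (SE 0.047, adjusted p = 0.427) for HADHB. The fall of HADHA did not pass with only SLC22A15_OE and vector in the fit, or without vector 2, vector 3, SLC22A15_OE 1 or SLC22A15_OE 2 (limma adjusted p from 0.0610 to 0.112).

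The electron transfer flavoprotein takes the electrons of the dehydrogenases and hands them to its ubiquinone oxidoreductase, and all 3 genes for these proteins rose in SLC22A10_OE. ETFB, the beta subunit, had 45.6, 43.1 and 41.8 CPM in SLC22A15_OE, 52.3, 62.3 and 55.4 CPM in SLC22A10_OE and 36.2, 35.5 and 36.99 CPM in vector. The groups did not overlap, and vector was lowest. Its log2 fold change was 0.26 (SE 0.068, adjusted p = 0.0162) in SLC22A15_OE and 0.63 (SE 0.068, adjusted p = 3.29e-06) in SLC22A10_OE, and the first of these was lost without vector 2 or SLC22A15_OE 1 (limma adjusted p = 0.0511 and 0.0561). ETFA, the alpha subunit, had 81.1, 94.9 and 91.99 CPM in SLC22A15_OE, 115, 116 and 106 CPM in SLC22A10_OE and 87.6, 98.9 and 90.3 CPM in vector, so that only SLC22A10_OE stood apart (log2 fold change 0.28 (SE 0.067, adjusted p = 0.00224), lost with centring at an adjusted p of 0.0530). ETFDH, the oxidoreductase, had 9.40, 12.1 and 10.5 CPM in SLC22A15_OE, 16.4, 15.8 and 14.1 CPM in SLC22A10_OE and 8.98, 10.6 and 10.02 CPM in vector, and again only SLC22A10_OE stood apart (log2 fold change in SLC22A10_OE 0.60 (SE 0.10, adjusted p = 0.000165)). Of the ETFDH exon bases, 14.9% overlap PPID on the opposite strand, and the labels and headers do not say whether the counting used strand.

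All 6 peroxisomal members rose in SLC22A10_OE, and 1 rose in SLC22A15_OE. EHHADH, the bifunctional enzyme for straight and dicarboxylic chains, had 14.00, 14.3 and 14.6 CPM in SLC22A15_OE, 29.6, 31.3 and 31.3 CPM in SLC22A10_OE and 12.9, 13.6 and 14.00 CPM in vector. SLC22A10_OE was above all other libraries, at about the same distance from both groups. The log2 fold change of EHHADH was 1.13 (SE 0.067, adjusted p = 1.38e-08) in SLC22A10_OE and 0.077 (SE 0.067, adjusted p = 0.476) in SLC22A15_OE. HSD17B4, the bifunctional enzyme for branched and very long chains, had 107, 114 and 113 CPM in SLC22A15_OE, 159.6, 164 and 148 CPM in SLC22A10_OE and 111, 123 and 122 CPM in vector (log2 fold change in SLC22A10_OE 0.40 (SE 0.057, adjusted p = 3.39e-05)). ECI2, an enoyl-CoA isomerase, had 46.7, 50.7 and 48.99 CPM in SLC22A15_OE, 66.7, 68.1 and 60.9 CPM in SLC22A10_OE and 46.9, 46.8 and 48.01 CPM in vector (log2 fold change in SLC22A10_OE 0.46 (SE 0.058, adjusted p = 1.43e-05)). In both genes SLC22A15_OE overlapped vector. DECR2, the peroxisomal dienoyl-CoA reductase, had 16.6, 14.3 and 16.6 CPM in SLC22A15_OE, 19.7, 21.6 and 22.1 CPM in SLC22A10_OE and 13.9, 10.6 and 11.2 CPM in vector, with both lines above vector. It rose by 0.39 (SE 0.10, adjusted p = 0.0147) on the log2 scale in SLC22A15_OE and by 0.78 (SE 0.10, adjusted p = 1.53e-05) in SLC22A10_OE. The call in SLC22A15_OE was lost without vector 2, vector 3 or SLC22A15_OE 3 (limma adjusted p from 0.0613 to 0.0647). The thiolase ACAA1 was at 21.8 ± 1.08 CPM in SLC22A10_OE, against 18.2 ± 0.637 CPM in vector (0.25, adjusted p = 0.0100), and the branched-chain oxidase ACOX3 was at 24.6 ± 1.17 CPM in SLC22A10_OE, against 21.4 ± 0.481 CPM in vector (0.19, adjusted p = 0.0259). Both calls were lost with centring (limma adjusted p = 0.147 and 0.378), and that of ACOX3 also in 5 other settings, without vector 1 or 2, without SLC22A10_OE 2 or 3, and without the libraries with little mitochondrial ribosomal RNA (0.0517 to 0.0956). Of the ACAA1 exon bases, 22.2% overlap DLEC1 on the opposite strand.

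The largest differences were among the regulators, of which 3 rose and 1 fell in SLC22A10_OE and 2 fell in SLC22A15_OE. Of all genes tested, 67.2% were called in SLC22A10_OE and 20.4% in SLC22A15_OE. PDK4, a kinase that inactivates pyruvate dehydrogenase and so spares glucose carbon when fat is burned, had 1.02, 1.17 and 0.875 CPM in SLC22A15_OE, 13.5, 14.3 and 11.8 CPM in SLC22A10_OE and 1.42, 1.46 and 1.14 CPM in vector. It was low in vector and in SLC22A15_OE, which overlapped, and every SLC22A10_OE library was several times higher. Its log2 fold change was 2.60 (SE 0.11, adjusted p = 6.72e-10) in SLC22A10_OE and -0.21 (SE 0.11, adjusted p = 0.213) in SLC22A15_OE. With a pseudocount of 0.1 CPM in place of 1 CPM the first was 3.21, and the authors' deposited table gives 3.31. ANGPTL4, a secreted inhibitor of lipoprotein lipase and a PPAR target, had 5.30, 5.23 and 4.79 CPM in SLC22A15_OE, 27.8, 28.1 and 26.7 CPM in SLC22A10_OE and 18.6, 15.4 and 16.3 CPM in vector. Here all 3 groups were apart, with SLC22A15_OE lowest. ANGPTL4 fell in SLC22A15_OE, at -1.54 (SE 0.084, adjusted p = 4.39e-08) on the log2 scale, and rose in SLC22A10_OE, at 0.68 (SE 0.084, adjusted p = 1.02e-05), and between the lines the difference was -2.22 (SE 0.084, adjusted p = 9.44e-10). PPARA, the fatty acid receptor of oxidative tissues, had 22.4, 20.6 and 21.8 CPM in SLC22A15_OE, 43.8, 46.8 and 51.9 CPM in SLC22A10_OE and 20.8, 19.5 and 20.5 CPM in vector, and SLC22A10_OE stood apart (log2 fold change 1.19 (SE 0.072, adjusted p = 1.70e-08)). PPARD, the widely expressed family member, was at 39.6 ± 2.58 CPM in SLC22A10_OE, against 38.2 ± 2.24 CPM in vector and did not pass (adjusted p = 0.535). PPARGC1B, a coactivator of mitochondrial genes, ran against the enzymes, with 32.4, 33.1 and 33.4 CPM in SLC22A15_OE, 20.3, 18.5 and 21.4 CPM in SLC22A10_OE and 40.3, 38.4 and 39.9 CPM in vector. Its groups did not overlap, and both lines stood below vector, SLC22A10_OE lowest. The log2 fold change was -0.25 (SE 0.065, adjusted p = 0.0138) in SLC22A15_OE, a call lost without vector 3 (limma adjusted p = 0.0570), and -0.94 (SE 0.065, adjusted p = 5.35e-08) in SLC22A10_OE.

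In GENCODE 29 (GRCh38), PDK4 lies at chr7:95583499-95596491, minus strand, and ANGPTL4 at chr19:8363289-8374373, plus strand. The 250 bases before their RefSeq starts are shown because these are the members with the largest differences between the lines. For ANGPTL4 the RefSeq start and this window lie inside the GENCODE span. Capitals mark the GC box GGGCGG, a motif of Sp family factors, or its reverse complement CCGCCC, and the windows (GRCh38.p14) are chr7:95596517-95596766 on the minus strand for PDK4 and chr19:8363905-8364154 on the plus strand for ANGPTL4.
PDK4: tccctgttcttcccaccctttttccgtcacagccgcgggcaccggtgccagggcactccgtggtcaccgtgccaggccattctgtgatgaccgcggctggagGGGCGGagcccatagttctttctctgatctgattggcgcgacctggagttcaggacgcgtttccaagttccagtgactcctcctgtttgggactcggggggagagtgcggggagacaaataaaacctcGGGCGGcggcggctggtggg
ANGPTL4: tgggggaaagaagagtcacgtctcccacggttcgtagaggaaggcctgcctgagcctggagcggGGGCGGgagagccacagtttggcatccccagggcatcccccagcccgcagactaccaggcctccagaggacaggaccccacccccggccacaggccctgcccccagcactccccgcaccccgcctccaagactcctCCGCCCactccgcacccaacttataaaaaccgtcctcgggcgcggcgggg
Each of the 2 windows holds 2 GC boxes. A RefSeq upstream window was matched for 30 of the 37 members, and a direct repeat of AGGTCA with any 1 base between the copies, the form bound by PPAR with its partner RXR, was in 0 of these 30 on either strand, against 0.022% of all 27305 genes with a window. A single AGGTCA was in 1 (3.33%), ACAD10, at 67 bases before the start on the minus strand, against 14.6% of all genes with a window and 12.4% of the 11161 tested ones. GGGCGG, a motif chosen after the windows had been seen, was in 26 of 30 (86.7%) on either strand, against 46.2% of all genes and 73.0% of the tested ones. No match says only that these letters are not in this window.

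Summed over the members, the level was highest in SLC22A10_OE at every step. All 37 members summed to 1819.5 ± 19.6 CPM in SLC22A15_OE, 2426 ± 32.6 CPM in SLC22A10_OE and 1836 ± 12.5 CPM in vector (SD, n = 3 each). That is 1.32 times vector in SLC22A10_OE and 0.991 times in SLC22A15_OE. The shuttle had the widest ratio in SLC22A10_OE, 1.83, with 160.1 ± 2.79 CPM in SLC22A15_OE, 260.2 ± 10.5 CPM in SLC22A10_OE and 142 ± 7.75 CPM in vector. The other ratios to vector in SLC22A10_OE were 1.17 for the dehydrogenases, 1.32 for the later mitochondrial steps, 1.33 for electron transfer, 1.39 for the peroxisomal genes and 1.27 for the regulators. In SLC22A15_OE the ratios were 1.12 for the shuttle, 0.996, 0.958, 1.04 and 1.02 for the following 4 steps, and 0.888 for the regulators. The regulators summed to 103.1 CPM in SLC22A15_OE and 116.1 CPM in vector, of which ANGPTL4 alone made up 5.11 and 16.8 CPM. The SLC22A10_OE libraries did not overlap the vector libraries in any step. Sums weigh abundant genes most and were not tested.

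**Figure D3:**
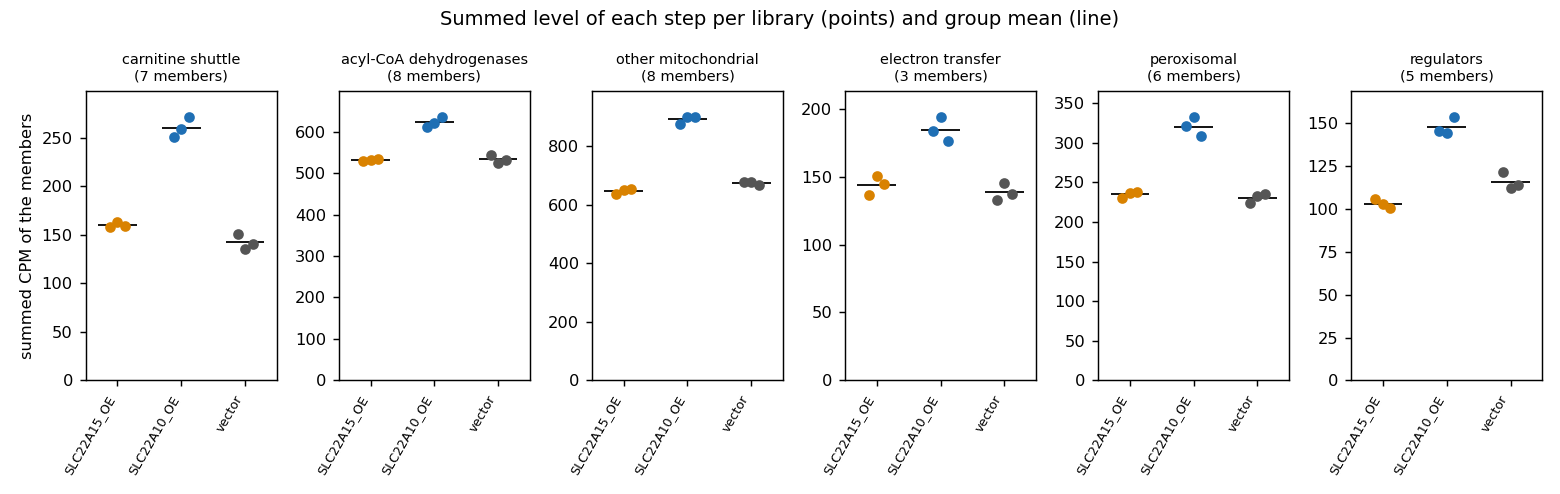
Summed CPM (y axes, each from 0) of the members of each step in every library (points) of SLC22A15_OE, SLC22A10_OE and vector, with the group mean as a line. The shuttle panel shows the widest gap, 260.2 CPM in SLC22A10_OE against 142 CPM in vector, while SLC22A15_OE and vector lie close together in the dehydrogenase panel.

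Levels of different genes were set beside each other per kb of merged exons (GENCODE 29). ACADVL stood highest, at 116 CPM per kb in SLC22A15_OE, 137 in SLC22A10_OE and 121 in vector, followed in vector by HADHA, ECHS1, HADHB and ETFA. PDK4, CPT1C and ACAD11 were the lowest in vector, at 0.375, 0.718 and 0.804 CPM per kb. The largest fold changes, those of PDK4 and CPT1C in SLC22A10_OE, were thus in the members lowest in vector. A low vector level and a large rise over vector are not independent. By level per kb in SLC22A10_OE itself, PDK4 ranked 33 and CPT1C 34 among the 37 members.

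Read across both comparisons with vector, 23 members rose in SLC22A10_OE and did not pass in SLC22A15_OE, and 20 of these 23 were also lower in SLC22A15_OE than in SLC22A10_OE by the direct test. The other 3 (ECI1, ACAA1 and ACOX3) did not pass that test, so a difference between the lines was not shown for them. Of the 6 members that rose in both lines, 5 were lower in SLC22A15_OE than in SLC22A10_OE and CROT did not pass. CPT1A, HADHA and ANGPTL4 rose in SLC22A10_OE and fell in SLC22A15_OE, a pattern held by 183 of all genes tested (1.26%), and no member had the opposite pattern (102 genes, 0.701%). PPARGC1B fell in both lines.

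Genes of the pathway outside the set were counted by list, and some genes stand in more than one list. The counts are read beside the shares of all genes tested, 34.7% higher and 32.5% lower in SLC22A10_OE and 10.8% higher and 9.58% lower in SLC22A15_OE. For the uptake and activation of fatty acids, 6 of 13 tested rose and 4 fell in SLC22A10_OE, and 2 rose and 2 fell in SLC22A15_OE, which lies near those shares. SLC27A1, a fatty acid transport protein, was at 41.7 ± 4.49 CPM in SLC22A10_OE, against 13.6 ± 1.93 CPM in vector (log2 fold change 1.55, adjusted p = 5.45e-08). ACSL4, an acyl-CoA synthetase that prefers arachidonate, fell in both lines, to 62.9 ± 4.03 CPM in SLC22A15_OE and 68.3 ± 2.89 CPM in SLC22A10_OE, against 110.2 ± 10.1 CPM in vector (limma log2 fold changes -0.80 and -0.68). Of 6 carnitine supply genes tested, 2 rose and 1 fell in SLC22A10_OE and 0 passed in either direction in SLC22A15_OE. The carnitine transporter SLC22A5 was at 38.02 ± 0.573 CPM in SLC22A10_OE, against 37.94 ± 1.17 CPM in vector, and did not pass (limma adjusted p = 0.964). SLC25A29, a mitochondrial carrier of basic amino acids first described as a carnitine carrier, was at 64.4 ± 3.19 CPM in SLC22A10_OE, against 37.7 ± 3.58 CPM in vector (log2 fold change 0.76, adjusted p = 3.39e-06). SLC22A4, a transporter of ergothioneine with weak affinity for carnitine, was at 1.71 ± 0.229 CPM in SLC22A10_OE, against 3.16 ± 0.656 CPM in vector (log2 fold change -0.61, adjusted p = 0.00111). Of 13 other mitochondrial oxidation and propionate genes, 6 rose and 1 fell in SLC22A10_OE, and 1 rose and 1 fell in SLC22A15_OE. PCCB, a propionyl-CoA carboxylase subunit, rose in both lines, to 45.1 ± 0.571 CPM in SLC22A15_OE and 61.1 ± 1.01 CPM in SLC22A10_OE, against 36.4 ± 2.48 CPM in vector (limma log2 fold changes 0.31 and 0.74).

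Of 16 other peroxisomal oxidation genes, 13 rose and 2 fell in SLC22A10_OE, and 2 rose and 1 fell in SLC22A15_OE. PHYH, which starts the alpha-oxidation of phytanic acid, was at 27.9 ± 0.424 CPM in SLC22A10_OE, against 14.8 ± 0.547 CPM in vector (log2 fold change 0.87, adjusted p = 1.93e-07). CAT, the peroxisomal catalase, was at 25.6 ± 0.962 CPM in SLC22A10_OE, against 16.2 ± 0.801 CPM in vector (log2 fold change 0.63, adjusted p = 3.30e-06). The 2 that fell in SLC22A10_OE were ABCD3 and NUDT19. ABCD3, a peroxisomal membrane transporter of branched acyl groups, fell in both lines, to 95.0 ± 4.85 CPM in SLC22A15_OE and 78.6 ± 4.85 CPM in SLC22A10_OE, against 112 ± 8.05 CPM in vector (limma log2 fold changes -0.23 and -0.51). NUDT19, a coenzyme A hydrolase, was at 67.7 ± 1.99 CPM in SLC22A10_OE, against 100.4 ± 1.76 CPM in vector (log2 fold change -0.56, adjusted p = 3.73e-07). Of 18 regulators outside the set, 7 rose and 5 fell in SLC22A10_OE, and 5 rose and 2 fell in SLC22A15_OE. In SLC22A10_OE this is close to the 34.7% higher and 32.5% lower among all genes. MLXIPL, which encodes the glucose-responsive factor ChREBP on chromosome 7, rose in both lines, to 10.4 ± 0.757 CPM in SLC22A15_OE and 23.5 ± 2.25 CPM in SLC22A10_OE, against 4.85 ± 0.683 CPM in vector (limma log2 fold changes 0.96 and 2.07). ACACB, whose product malonyl-CoA inhibits CPT1, also rose in both, to 21.5 ± 1.56 CPM in SLC22A15_OE and 29.1 ± 0.946 CPM in SLC22A10_OE, against 14.8 ± 1.34 CPM in vector (0.51 and 0.93). NRIP1, a corepressor of nuclear receptors, fell to 16.5 ± 1.06 CPM in SLC22A15_OE and 27.9 ± 1.16 CPM in SLC22A10_OE, against 41.7 ± 4.61 CPM in vector (-1.28 and -0.56).

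Outside the set, 11 tested genes had been listed as PPAR targets. Of these, 8 rose and 3 fell in SLC22A10_OE, beside 67.2% of all genes called. In SLC22A15_OE, 1 rose and 3 fell, beside 20.4% of all genes called. Control of the listed genes by PPAR in these cells was not tested. TXNIP, an arrestin that limits glucose uptake, and PDK3, another pyruvate dehydrogenase kinase, had opposite calls in the lines. TXNIP was at 44.2 ± 0.737 CPM in SLC22A15_OE, 368 ± 4.9997 CPM in SLC22A10_OE and 56.2 ± 0.291 CPM in vector (limma log2 fold changes against vector of -0.34 and 2.69). PDK3 was at 64.7 ± 2.08 CPM in SLC22A15_OE, 101 ± 3.90 CPM in SLC22A10_OE and 79.00 ± 1.68 CPM in vector (-0.28 and 0.35). CREB3L3, a liver and gut factor of the fasting response, was at 9.30 ± 0.366 CPM in SLC22A10_OE, against 1.02 ± 0.385 CPM in vector (log2 fold change 2.37, adjusted p = 1.99e-08). ACSL1 and UCP3 were among the 3 that fell in SLC22A10_OE. ACSL1 was at 45.4 ± 0.994 CPM there, against 64.6 ± 1.56 CPM in vector (-0.50, limma adjusted p = 5.99e-06). UCP3 was at 0.567 ± 0.158 CPM, against 1.52 ± 0.349 CPM in vector (-0.68, limma adjusted p = 0.000886).

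Each member was also read beside the tested genes within 5 Mb on its chromosome, 13 to 221 of them, since a region can move as a whole in a clone. The median fold change of these neighbours ran from -0.18 to 0.47 for SLC22A10_OE, and 32 of 37 members lay above their neighbours' median. For SLC22A15_OE the medians ran from -0.10 to 0.47, and 24 members lay above. The neighbours of CROT on chromosome 7 (chr7:87345681-87399795, plus strand) had the highest median, 0.47 in both lines, and CROT itself was at 0.53 in SLC22A15_OE and 0.39 in SLC22A10_OE, with 9 and 14 of its 22 neighbours above it. In both lines CROT thus lay near the median of its neighbours. Of the 81 neighbours of PDK4, on the same chromosome, 0 had a higher fold change in SLC22A10_OE. Of the 221 neighbours of ANGPTL4 on chromosome 19, all had a higher fold change in SLC22A15_OE, while in SLC22A10_OE their median was 0.21 beside 0.68 for ANGPTL4. CPT1A on chromosome 11 was above 143 of 169 neighbours in SLC22A10_OE and below 166 in SLC22A15_OE. The part of copy number in these values was not tested.

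**Figure D4:**
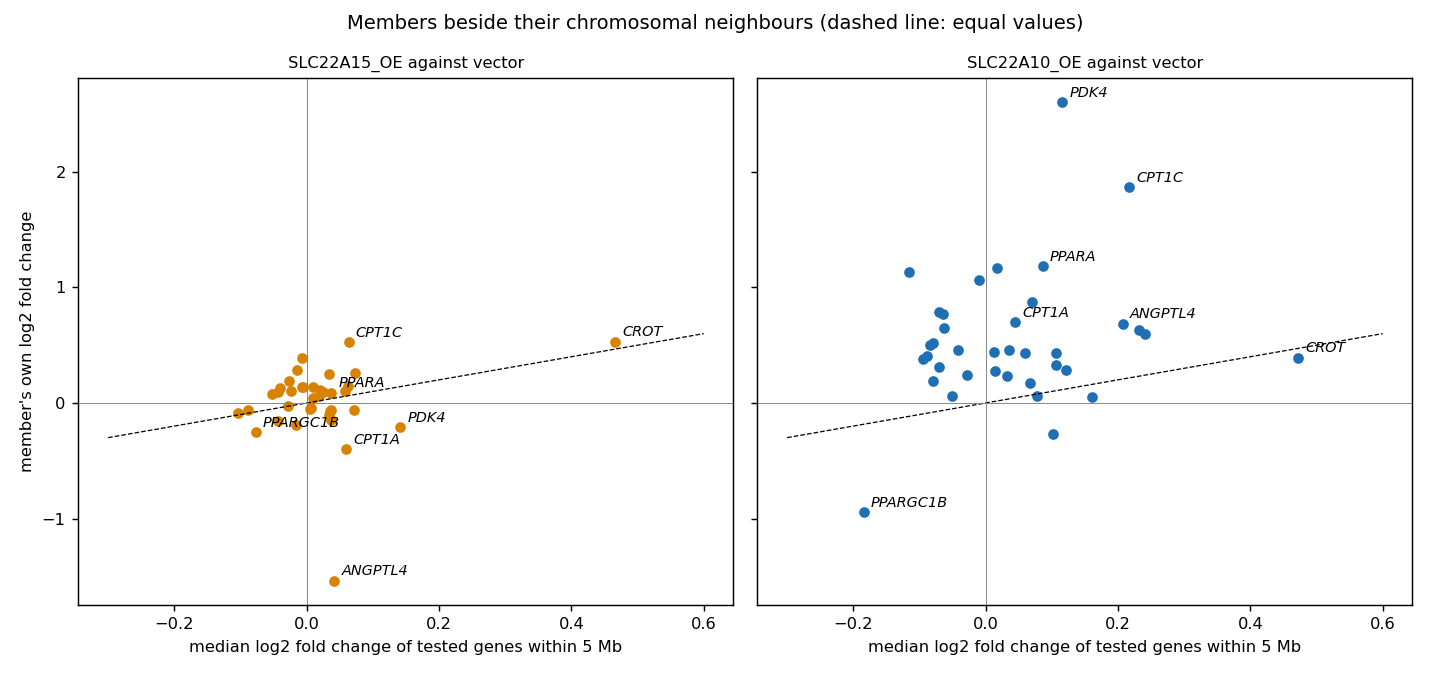
Log2 fold change of each member (y axis) against the median log2 fold change of the tested genes within 5 Mb of it (x axis), for SLC22A15_OE and SLC22A10_OE against vector; the dashed line marks equal values. CROT lies near the line at the far right of both panels (neighbour median 0.47), while PDK4 in SLC22A10_OE and ANGPTL4 in SLC22A15_OE lie far from it.

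The members' changes were seen in libraries of both kinds of mitochondrial ribosomal RNA share. In the single libraries of each group with little of it, 35 of 37 members were higher in SLC22A10_OE than in vector, with a median of 0.45, and in the other libraries 35 were, with a median of 0.44. All 34 members called for SLC22A10_OE, all 10 for SLC22A15_OE and all 29 between the lines kept their sign in both kinds. In every called member the libraries of the groups compared did not overlap. Any subset of them would thus give that sign, and this count adds no support. With a term for the 3 libraries in the fit, 11 members were called higher in SLC22A15_OE against vector where the fit without it called 6, while the share of all genes called higher went up likewise, at 19.7% with the term and 10.8% without it. The authors' deposited table, at an FDR under 0.05, called 32 members higher and 2 lower in SLC22A10_OE, with 62.5% of its 16750 genes called, and 6 higher and 4 lower in SLC22A15_OE, with 17.8% called.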

How the data were processed

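The authors deposited CPM per gene (human Entrez numbers) for 9 libraries, and a table for each overexpressing line against vector with, per the file headers, an F score, a p-value, an FDR, a mean log2 CPM and a log2 fold change. edgeR and the builds hg38 and mm9 are named in the submitters' processing notes, with no role or version; no aligner, counting program or use of strand is stated in the labels or headers. The sample titles end in A1, A2 and B1 in each group. The CPM columns carry a group and a number and could not be matched to these suffixes, so the main test used the libraries as equal members of their group. The deposited CPM were whole multiples of 1 read: 100% of values fell within 0.1 read of a whole number, which gave the library totals; the deposited CPM refer to a scaled library size, so column sums vary around 1e+06. The −log10 of the FDR in the authors' tables was not used.

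The main test was limma 3.58.1 (R 4.3.3), with moderated variances and a mean trend, on log2(CPM + 1). It was fitted without covariates to all 9 libraries at once, leaving 6 residual degrees of freedom, and gave 3 contrasts. Genes at 1 CPM or more in at least 3 libraries were tested, 14554 in all, and two-sided p-values were adjusted by Benjamini-Hochberg over them with a threshold of 0.05. The counting SD covers counting error only. The members and lists were chosen with earlier results of these data known, so the members' counts and medians stand beside those of all genes, and no test of a list was made. Values of every library are given for up to 4 members of each step by smallest adjusted p and for members called in opposite directions, and for CROT, added after its values were seen. Of each other list up to 2 genes in each direction may be named, and SLC22A5 was added after its values were seen. The code of the fit was run on simulated counts with 200 changed genes and no library set apart within a group. That run does not test whether the fit suits these data.

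Alternatives were pseudocounts of 0.25 and 0.1 CPM, no filter and a filter of 5 CPM, centring each library on its median, edgeR 4.0.16 and DESeq2 1.42.0 on the recovered reads, only the 2 groups compared, each library left out, a block by column number, and a term for or the removal of the 3 libraries with little mitochondrial ribosomal RNA. edgeR called 9742, 2982 and 9133 genes for SLC22A10_OE, for SLC22A15_OE and between the lines. Columns of the same number deviated together between SLC22A15_OE and vector (r = 0.57, 0.31 and 0.19 across genes), a pairing read from the data and not from the labels, and number 1 is the library with little mitochondrial ribosomal RNA in both groups. Upstream sequences came from RefSeq (GRCh38.p14; Python 3.11.15) and exons and positions from GENCODE 29. Values of some genes are not reported here.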

Additional observations from a re-analysis of the deposited data

Results flagged for a closer look

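3 members had opposite calls against vector in the 2 lines, and the lines differed in the direct test. ANGPTL4 fell in SLC22A15_OE and rose in SLC22A10_OE, with a log2 difference between the lines of -2.22 (limma, Benjamini-Hochberg adjusted p = 9.44e-10). For CPT1A the difference was -1.10 (adjusted p = 1.56e-07), and for HADHA it was -0.48 (adjusted p = 1.00e-06). In each of these genes all 3 SLC22A15_OE libraries lay below all 3 SLC22A10_OE libraries, with vector between them. The fall of HADHA in SLC22A15_OE against vector is the weakest of the 6 calls and is lost when any 1 of 4 libraries is left out, so that its opposite direction rests on that call.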

How the results depend on the processing

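Of 1887 fold changes of single members under the alternatives, 1821 kept their direction and side of the threshold, 34 lost a call, 19 gained one and 13 changed sign, all 13 without a call. Of the calls, 28 of 34 for SLC22A10_OE, 4 of 10 for SLC22A15_OE (CPT1A, CPT2, CROT and ANGPTL4) and 28 of 29 between the lines held under every alternative run; ACADM lost the last. With centring the median of the members was 0.32 for SLC22A10_OE and -0.30 between the lines, where 5 members were then higher; centring shifts every gene alike. A term for the 3 libraries poor in mitochondrial ribosomal RNA raised the members called higher in SLC22A15_OE to 11, beside 19.7% of all genes where the fit without it gave 10.8%, and leaving those libraries out gave 2 higher between the lines; the cause was not tested. With 1 library left out, the members higher, lower and their median were 30 to 32, 2 and 0.42 to 0.47 for SLC22A10_OE, 3 to 6, 2 to 4 and 0.018 to 0.094 for SLC22A15_OE, and 1 to 2, 27 to 28 and -0.43 to -0.38 between the lines. The 3 came without vector 2 or vector 3, the 2 lower without vector 3, the 0.018 without SLC22A15_OE 2 and the 2 higher between the lines without SLC22A15_OE 1. Signs turned with centring for SLC25A20 (-0.061), ACAD9 (-0.062) and PPARD (-0.069) in SLC22A10_OE and for ACAA1 (0.037) and ACOX3 (0.047) between the lines. With 1 library left out, SLC25A20 ran from -0.035 to 0.15 in SLC22A10_OE, and in SLC22A15_OE ACADS ran from -0.083 to 0.21, HADH from -0.054 to 0.023, DECR1 from -0.11 to 0.016 and ETFA from -0.092 to 0.020. Without the 3 libraries HADH was 0.031. The replicate block by column number changed no call of a member, with 32 higher and 2 lower in SLC22A10_OE, 6 and 4 in SLC22A15_OE and 1 and 28 between the lines; the numbers did not pair SLC22A10_OE with vector (r = -0.41, 0.14 and -0.26) or the lines (-0.39, 0.11 and -0.36). Depth limits PDK4 and CPT1C most, the members nearest to 1 CPM.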
